A study of Mus musculus with 16 samples.

Results

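Nucleotide excision repair removes bulky lesions from DNA, and its genes were followed here in mouse liver after oxaliplatin. The 30 genes described were chosen by name, as symbols of the deposited count table, which holds 40840 symbols. All 30 had enough reads to be tested, among 14484 genes tested. By role they comprised 5 genes of global genome damage sensing, 3 of transcription-coupled sensing, 6 of the TFIIH core, 3 of its kinase module, 7 of damage verification and incision, and 6 of gap filling and ligation. Grouped by genotype and dosing time, 4 libraries each came from wild-type (WT) mice dosed at circadian time 8 (CT8), WT mice dosed at CT16, Cry1-/-Cry2-/- mice (labelled CryDKO) dosed at CT8, and CryDKO mice dosed at CT16. All mice were male C57BL/6J, 12 to 16 weeks old, kept for 3 weeks in 12 hours of light and 12 of dark and then in constant darkness from 3 days before the drug. All were injected intraperitoneally with 12 mg/kg oxaliplatin, whose platinum binds DNA bases and links them, on 3 days (the series text also speaks of a single dose). Because every group was dosed, a difference that was there without the drug and a difference in the response to it cannot be told apart, and no source used here gives the hour at which livers were taken. Nothing in the labels states that libraries within a group are different animals, so each p measures the spread between these libraries, which may be technical.

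In global genome repair the XPC complex and the DDB1-DDB2 ubiquitin ligase find distorted DNA anywhere in the genome. In transcription-coupled repair a stalled RNA polymerase is recognised by CSB (Ercc6), CSA (Ercc8) and UVSSA, and UVSSA brings in TFIIH. Both routes then use the TFIIH helicases to open the helix, XPA and RPA to verify the damage and hold the strands, the ERCC1-XPF and XPG nucleases to cut out the damaged strand, and PCNA, DNA polymerases and ligases to refill the gap. In liver the pathway is known for removing platinum adducts between neighbouring bases, and clock control of some of its proteins, XPA above all, has been described in mouse liver.

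Counted reads per library ranged from 18083916 to 29934138. The targeted genes were checked first. Levels are given as CPM, the count relative to library depth, with libraries brought to one scale by TMM, the trimmed mean of log ratios. WT libraries held Cry2 at 39.9 to 58.9 CPM and the libraries labelled CryDKO at 23.1 to 33.3. For Cry1 the WT range was 5.14 to 15.9 CPM and that of libraries labelled CryDKO 20.5 to 29.0, higher and not lower, and whether the counted reads cover the deleted part was not tested, so the Cry1 count does not check the label. WT_CT16 library 8 stood apart: its TMM factor was 1.20, against 0.921 to 0.955 in the other WT_CT16 libraries and 1.13 to 1.24 in WT_CT8. Its level lay inside the WT_CT8 range for 58.9% of the genes tested, against 28.8% to 34.2% for libraries 5, 6 and 7. The calls of members that use it are therefore also given without it. Sums, shares and ratios of WT_CT16, and the counts of other gene lists unless stated otherwise, include it. The summed level of 9 hepatocyte markers was 58820 to 71466 CPM in WT_CT8, 62923 to 111680 in WT_CT16, 108350 to 142571 in CryDKO_CT8 and 112425 to 169102 in CryDKO_CT16. Markers of other cell types also moved with the groups. Over 9 Kupffer cell and macrophage markers the sums were 53.5 to 75.0, 24.6 to 89.9, 62.8 to 153 and 97.3 to 169 CPM in the same order. Over 9 stellate cell and fibroblast markers they were 132 to 168, 80.8 to 185, 148 to 312 and 59.4 to 177 CPM, and over 5 cholangiocyte markers 25.8 to 91.7, 46.4 to 76.4, 50.4 to 146 and 47.4 to 146 CPM. By genotype at CT8, 4 of 9 stellate, 2 of 5 cholangiocyte, 2 of 9 Kupffer and 4 of 9 hepatocyte markers were called higher and none lower, with median log2 changes of 0.65, 0.85, 0.43 and 0.67. Across all genes 18.7% were called higher and 20.3% lower. With library size alone 2 stellate, 1 cholangiocyte, 0 Kupffer and 3 hepatocyte markers were higher and 1 hepatocyte marker lower. With TMM at CT8, 0 of 8 sinusoidal endothelium and 0 of 4 neutrophil markers tested were called. Of 2 erythroid markers tested 1 was higher and 1 lower. By genotype at CT16, 4 of 9 Kupffer markers were called higher (median log2 change 1.22), as were 2 stellate, 2 hepatocyte and 1 endothelium marker. Of 5 cholangiocyte markers 1 was higher and 1 lower, and of 2 erythroid markers 1 was higher. All-gene shares at CT16 were 9.0% higher and 9.15% lower. Over 6 erythroid markers the sums were 39.8 to 48.1, 28.3 to 50.6, 12.7 to 31.3 and 12.0 to 43.4 CPM in the same order. For 8 sinusoidal endothelium markers the sums were 60.8 to 84.1, 31.2 to 82.0, 50.1 to 97.0 and 53.4 to 77.0 CPM, and the T and NK cell, B cell and neutrophil sums did not exceed 11.1 CPM in any library. The part these markers play in the results below was not tested. In whole liver, fewer cells of a type and less RNA per cell cannot be told apart.

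Levels per length of merged exons were averaged over all 16 libraries. Rad23b and Ddb1, the partners of the lesion binders Xpc and Ddb2, were the highest of the 30 genes, at 42.0 and 41.6 CPM per kb. Next came Pcna, the sliding clamp of DNA synthesis, at 17.1, the small TFIIH subunit gene Gtf2h5 at 11.7 and Xpa at 11.6 CPM per kb. The lowest levels per length belonged to the catalytic subunit of DNA polymerase epsilon, Pole, at 0.243, to DNA ligase 1, Lig1, at 0.906, and to Ercc8 at 1.15 CPM per kb. Partners in one complex were thus unequal as transcripts: Ddb2, the lesion-binding partner of Ddb1, stood at 1.60 CPM per kb and Xpc, the partner of Rad23b, at 3.94.

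Promoter sequence is shown for 4 members that changed by genotype or dosing time, to set one transcription-coupled gene without and one with a clock E-box beside a TFIIH and an RPA gene with it. Each runs from 250 bases before to 50 bases after the start site, from RefSeq on GRCm38.p6, and capitals mark the E-box, CACGTG, which is bound by the clock activators that cryptochromes repress. The windows lie at chr5:33378446-33378745 on the plus strand for Uvssa, chr14:32513271-32513570 on the plus strand for Ercc6, chr7:46795844-46796143 on the plus strand for Gtf2h1 and chr11:75348334-75348633 on the minus strand for Rpa1.
Uvssa: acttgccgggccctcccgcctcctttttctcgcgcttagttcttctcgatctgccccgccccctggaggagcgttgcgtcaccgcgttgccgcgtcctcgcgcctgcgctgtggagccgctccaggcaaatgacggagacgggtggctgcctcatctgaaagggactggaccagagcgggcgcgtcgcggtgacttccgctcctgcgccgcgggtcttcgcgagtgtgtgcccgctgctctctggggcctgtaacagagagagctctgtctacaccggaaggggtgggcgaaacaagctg
Ercc6: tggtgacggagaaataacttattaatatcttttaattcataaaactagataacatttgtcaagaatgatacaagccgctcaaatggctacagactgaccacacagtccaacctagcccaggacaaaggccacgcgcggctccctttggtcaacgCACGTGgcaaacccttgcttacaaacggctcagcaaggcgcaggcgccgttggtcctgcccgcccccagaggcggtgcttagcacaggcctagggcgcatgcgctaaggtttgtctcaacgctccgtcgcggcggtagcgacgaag
Gtf2h1: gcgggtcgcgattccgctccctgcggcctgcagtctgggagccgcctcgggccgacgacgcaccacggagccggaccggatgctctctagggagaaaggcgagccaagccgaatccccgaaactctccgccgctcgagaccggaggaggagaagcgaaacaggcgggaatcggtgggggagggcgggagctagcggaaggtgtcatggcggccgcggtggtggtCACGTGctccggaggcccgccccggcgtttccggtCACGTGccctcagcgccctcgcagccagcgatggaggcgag
Rpa1: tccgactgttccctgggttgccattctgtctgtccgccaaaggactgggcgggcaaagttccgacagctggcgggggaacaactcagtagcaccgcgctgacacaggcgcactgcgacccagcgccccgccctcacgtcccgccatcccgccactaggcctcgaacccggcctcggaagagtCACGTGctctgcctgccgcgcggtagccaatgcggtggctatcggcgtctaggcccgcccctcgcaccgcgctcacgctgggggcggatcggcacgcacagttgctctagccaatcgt
The Uvssa window held no E-box, the Ercc6 window 1 with its first base at -96 from the start site, the Gtf2h1 window 2 at -26 and 10, and the Rpa1 window 1 at -68. No RefSeq window was available for Ccnh, Xpc, Pole, Ercc3 and Ddb2, so their promoters were not searched for any word. RefSeq windows were matched for the other 25 of the 30 members. Of these, 8 (Ercc6, Ercc8, Gtf2h1, Gtf2h5, Cdk7, Rpa1, Lig1 and Lig3) held CACGTG in at least 1 window, which is 32.0%, against 8.09% of all 27025 symbols with a window. The member windows were also richer in G and C, with a median of 60.8% against 52.7% over all windows, and the part of base composition in the E-box share was not tested. Of those 8 genes, with TMM, Ercc6 fell and Rpa1 and Lig1 rose by genotype at CT8, and Gtf2h1 fell at CT16. Ercc8, Gtf2h5, Cdk7 and Lig3 passed in no comparison with TMM. With scaling by library size alone the rises of Rpa1 and Lig1 at CT8 did not pass, and the falls of Ercc6 and Gtf2h1 did. Cdk7 and Gtf2h5 were then also called lower at CT8. The part of the E-box in these changes was not tested. The D-box TTANGTAA was in 0 member windows (2.32% of all 32851 windows), the ROR element TAGGTCA in that of Xrcc1 (2.61%) and the p53 half-site in that of Cetn2 (8.36%). All words were searched on both strands.

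Between the genotypes at CT8, the transcription-coupled sensors Uvssa and Ercc6, the lesion binder Ddb2 and the smallest RPA subunit Rpa3 fell in libraries labelled CryDKO, while Ddb1, the TFIIH helicase gene Ercc3 and 8 other members rose. At a Benjamini-Hochberg adjusted p of 0.05 over all genes tested (edgeR's quasi-likelihood test), 10 of 30 members were higher and 4 lower. Across all genes 18.7% were called higher and 20.3% lower, so the number of members called is near the background of this comparison and is not a result about the pathway. The median log2 change was 0.08 over members and -0.02 over all genes. In 16 members, 10 higher and 6 lower, the values of the groups did not overlap, against 39.2% of all genes. The directions by step were 3 higher and 1 lower of 5 global genome sensors, 0 higher and 2 lower of 3 transcription-coupled sensors, 3 higher of 6 TFIIH core genes, 0 of 3 kinase genes, 3 higher and 1 lower of 7 verification and incision genes, and 1 higher of 6 gap filling genes.

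**Figure D1:**
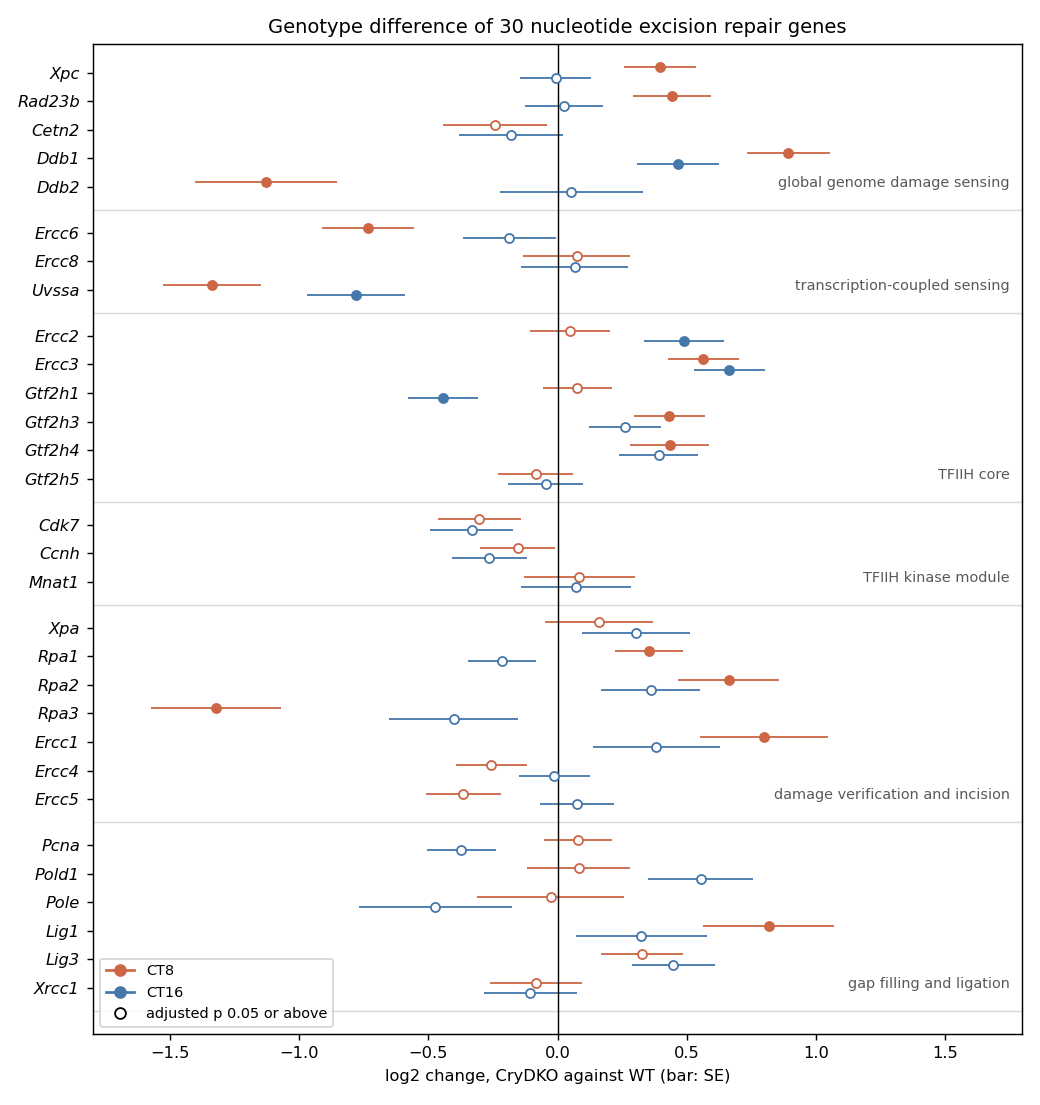
Log2 change between CryDKO and WT (x axis, bars are SE) for each of the 30 genes (y axis, grouped by step) at CT8 (orange) and CT16 (blue), filled where the adjusted p was under 0.05. Filled points lie on both sides of 0 within the global genome sensing, TFIIH core and incision groups. In transcription-coupled sensing they lie only below 0, and the kinase module has none.

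Uvssa showed the lowest adjusted p of the members at CT8. Its level was 27.0, 37.2, 28.0 and 31.8 CPM in the 4 WT_CT8 libraries and 10.9, 10.6, 11.3 and 16.3 CPM in the 4 CryDKO_CT8 libraries. All 4 knockout-labelled libraries lay below all 4 WT libraries, with 1 of them, library 16, above its group. The means were 31.0 ± 4.64 and 12.3 ± 2.70 CPM (SD, n = 4), a log2 change of -1.34 ± 0.19 (SE, adjusted p = 6.33e-05, edgeR's quasi-likelihood test). At CT16 the gene stood at 19.3, 16.4, 18.9 and 27.0 CPM in WT and at 15.1, 11.2, 12.8 and 8.45 CPM in CryDKO. The groups again did not overlap, and Uvssa fell by 0.78 ± 0.19 on the log2 scale (adjusted p = 0.0083, edgeR). Both falls passed in each of 16 fits that left out 1 library and with scaling by library size alone.

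Ercc6 encodes CSB, the ATPase that first engages the stalled polymerase. It stood at 19.0, 26.2, 18.1 and 24.1 CPM in WT_CT8 and at 15.2, 9.97, 12.2 and 15.3 CPM in CryDKO_CT8, without overlap. The log2 change was -0.73 ± 0.18 (adjusted p = 0.00368, edgeR). At CT16 it was -0.19 and did not pass: WT libraries 5, 6 and 7 stood at 13.98, 12.7 and 14.001 CPM, and library 8 at 20.2, against 13.9, 11.6, 16.3 and 11.7 CPM in CryDKO. Ercc8, which encodes the CSA subunit of the ligase at the stalled polymerase, ranged only from 2.39 to 3.43 CPM over all 16 libraries and passed in no comparison. As a share of all reads of the 30 genes, a measure that needs no scaling between libraries, transcription-coupled sensing made up 8.99% ± 1.41 (SD, n = 4) in WT_CT8, 5.49% ± 1.86 in WT_CT16, 3.79% ± 0.705 in CryDKO_CT8 and 3.63% ± 0.682 in CryDKO_CT16. Its lowest WT_CT8 library, at 7.74%, lay above the highest CryDKO_CT8 library, at 4.81%. Global genome sensing took 44.2% ± 1.73, 51.5% ± 4.76, 55.1% ± 0.771 and 56.2% ± 0.968 in the same order, most of it reads of Ddb1 and Rad23b. Both genes were higher in CryDKO_CT8 than in WT_CT8, which by itself lowers the share of every other step. With TMM the summed level of transcription-coupled sensing was 55.8 ± 8.28 CPM in WT_CT8 and 28.5 ± 4.50 CPM in CryDKO_CT8 (SD, n = 4).

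**Figure D2:**
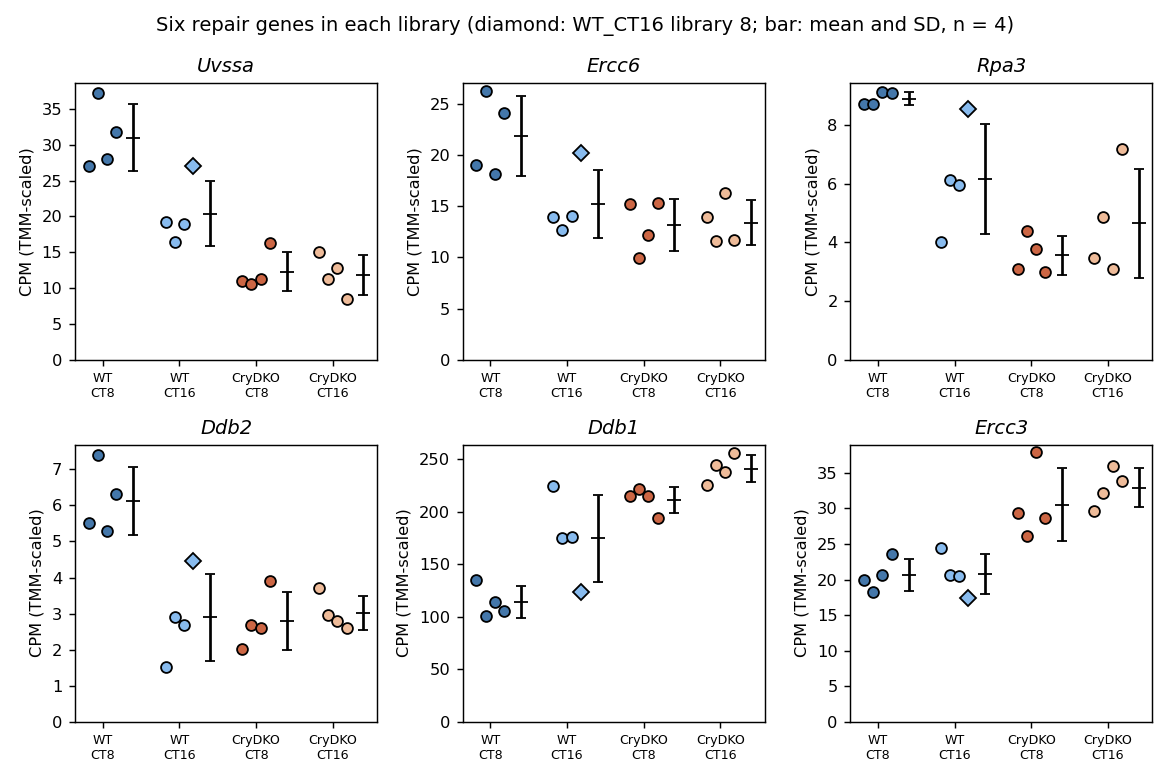
TMM-scaled CPM (y axis, from 0) of 6 members in each of the 16 libraries by group (x axis), with mean and SD at the right of each group and WT_CT16 library 8 as a diamond. Uvssa, Ercc6, Rpa3 and Ddb2 are highest in WT_CT8, Ddb1 is lowest there, and Ercc3 is higher in both CryDKO groups. Library 8 lies nearer to WT_CT8 than the other WT_CT16 libraries do for the first 5 of these.

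The 2 subunits of the UV-damage binding ligase went opposite ways at CT8. Ddb1, the adaptor that links DDB2 to its cullin, stood at 134.8, 100.9, 114 and 105 CPM in WT_CT8 and at 215, 222, 215 and 194 CPM in CryDKO_CT8. Every knockout-labelled library was above every WT library, a log2 change of 0.89 ± 0.16 (adjusted p = 0.000363, edgeR). Ddb2, which contacts the lesion, stood at 5.51, 7.40, 5.29 and 6.30 CPM in WT_CT8 and at 2.00, 2.70, 2.60 and 3.92 CPM in CryDKO_CT8, again without overlap. It fell by 1.13 ± 0.27 on the log2 scale (adjusted p = 0.00352, edgeR). Both calls held in each of the 16 fits that left out 1 library. Reads of Ddb2 per read of Ddb1 ran from 0.0409 to 0.0733 in WT_CT8 and from 0.00933 to 0.0202 in CryDKO_CT8. Because the strand setting of the counting was not given, overlapping genes on the opposite strand make some counts uncertain. Acp2 covers 26.7% of the exon bases of Ddb2 in GRCm38 and differed by -0.05 ± 0.13 at CT8 (adjusted p = 0.772, edgeR), while Tkfc covers 6.82% of those of Ddb1 and differed by 0.70 ± 0.33 at CT8 (adjusted p = 0.105, edgeR) and by 1.27 ± 0.34 at CT16 (adjusted p = 0.0157, edgeR). Mean levels were 39.9 CPM for Acp2 against 3.71 for Ddb2, and 379 CPM for Tkfc against 185 for Ddb1. The part of Acp2 and Tkfc in these counts was not tested.

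The XPC complex rose in part. Xpc, the lesion sensor itself, stood at 12.8, 10.4, 12.0 and 10.1 CPM in WT_CT8 and at 16.4, 14.1, 15.7 and 13.3 CPM in CryDKO_CT8, and changed by 0.40 ± 0.14 (adjusted p = 0.0287, edgeR). Rad23b, which stabilises XPC, stood at 123, 130.04, 129 and 134 CPM and at 202, 155, 182 and 163 CPM in these groups, and changed by 0.44 ± 0.15 (adjusted p = 0.0258, edgeR). Neither gene overlapped between the groups, but the calls were lost in 4 (Xpc: WT_CT8 libraries 2 and 4, CryDKO_CT8 libraries 9 and 15) and 3 (Rad23b: WT_CT8 library 2, CryDKO_CT8 libraries 9 and 15) of the 16 fits that left out the library named. Cetn2, the centrin of the complex, differed by -0.24 and did not pass.

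In the TFIIH core, Ercc3, the XPB translocase that opens DNA, rose at both dosing times. It stood at 19.9, 18.3, 20.7 and 23.6 CPM in WT_CT8 and at 29.4, 26.1, 38.0 and 28.6 CPM in CryDKO_CT8, and at 24.4, 20.7, 20.5 and 17.5 CPM in WT_CT16 and at 29.6, 32.2, 36.0 and 33.9 CPM in CryDKO_CT16. The groups did not overlap at either time. The log2 change was 0.56 ± 0.14 at CT8 (adjusted p = 0.00355, edgeR) and 0.67 ± 0.14 at CT16 (adjusted p = 0.00291, edgeR), and both calls held when any 1 library was left out. Reads of Uvssa per read of Ercc3, a pair of genes that differed by genotype in opposite directions at both times, ran from 1.35 to 2.04 in WT_CT8, 0.789 to 1.54 in WT_CT16, 0.297 to 0.570 in CryDKO_CT8 and 0.249 to 0.511 in CryDKO_CT16.

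Gtf2h3 and Gtf2h4, structural subunits of the core, rose at CT8 by a log2 change of 0.43 ± 0.14 (adjusted p = 0.0183, edgeR) and 0.43 ± 0.15 (adjusted p = 0.0304, edgeR). Gtf2h3 stood at 9.70, 8.85, 10.2 and 9.01 CPM in WT_CT8 and at 11.2, 13.8, 13.7 and 12.3 CPM in CryDKO_CT8. Gtf2h4 stood at 11.9, 12.7, 12.7 and 10.5 CPM and at 17.5, 14.6, 14.7 and 17.6 CPM. Neither overlapped, yet Gtf2h3 did not pass without WT_CT8 library 2 and Gtf2h4 did not pass without WT_CT8 library 4 or CryDKO_CT8 library 9 or 16. Gtf2h2, which encodes the remaining large core subunit and is not among the 30, fell by 0.39 ± 0.15 on the log2 scale at CT8 (adjusted p = 0.0407, edgeR). Its groups overlapped, and the call was lost in 10 of 16 fits that left out 1 library (adjusted p up to 0.146). Gtf2h5 passed in no comparison with TMM. The kinase genes Cdk7, Ccnh and Mnat1, whose module leaves TFIIH during repair, also passed in no comparison with TMM. At CT8 they differed by -0.30, -0.15 and 0.08. With library size alone Cdk7 (-0.63, adjusted p = 0.0181, edgeR), Ccnh (-0.49, adjusted p = 0.0122) and Gtf2h5 (-0.43, adjusted p = 0.0277) were called lower at CT8.

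Among the genes of verification and incision, the 3 subunits of RPA, the trimer that coats single-stranded DNA, did not change alike. Rpa3 stood at 8.71, 8.70, 9.10 and 9.08 CPM in WT_CT8, the tightest of its groups, and at 3.09, 4.40, 3.76 and 2.97 CPM in CryDKO_CT8. It fell by 1.32 ± 0.25 on the log2 scale (adjusted p = 0.000607, edgeR). Rpa2 stood at 4.85, 4.55, 4.15 and 3.68 CPM and at 6.67, 7.59, 7.03 and 6.00 CPM in these groups, and rose by 0.66 ± 0.19 (adjusted p = 0.0115, edgeR). Rpa1, the large subunit, stood at 17.5, 18.4, 21.4 and 18.4 CPM and at 22.4, 22.7, 25.7 and 26.0 CPM, and rose by 0.36 ± 0.13 (adjusted p = 0.0379, edgeR). None of the 3 overlapped between the groups, and the calls of Rpa3 and Rpa2 held in all 16 fits that left out 1 library, while that of Rpa1 was lost without WT_CT8 library 1, 2 or 4 or CryDKO_CT8 library 15 or 16. Reads of Rpa3 per read of Rpa1 ran from 0.425 to 0.497 in WT_CT8, 0.126 to 0.409 in WT_CT16, 0.115 to 0.194 in CryDKO_CT8 and 0.134 to 0.324 in CryDKO_CT16.

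The nuclease partners also differed. Ercc1, the non-catalytic partner of the XPF nuclease, stood at 2.09, 2.51, 2.81 and 2.81 CPM in WT_CT8 and at 5.40, 5.66, 3.43 and 3.27 CPM in CryDKO_CT8, and rose by 0.80 ± 0.25 on the log2 scale (adjusted p = 0.0158, edgeR). Within the knockout-labelled group libraries 9 and 10 were far above libraries 15 and 16, and without library 10 the call did not pass (adjusted p = 0.0549, edgeR). Cd3eap, on the opposite strand, covers 5.91% of the Ercc1 exon bases and differed by 0.22 ± 0.25 (adjusted p = 0.516, edgeR). Ercc4, which encodes XPF, and Ercc5, which encodes XPG, did not pass at CT8, although their groups did not overlap: Ercc5 ran from 20.1 to 26.2 CPM in WT and from 14.3 to 19.5 CPM in CryDKO, with a log2 change of -0.36 ± 0.14 (adjusted p = 0.0508, edgeR). Xpa did not pass in any of the comparisons. Its levels were 10.7, 12.7, 18.9 and 16.6 CPM in WT_CT8, 15.3, 20.2, 14.5 and 13.4 CPM in WT_CT16, 20.4, 13.3, 17.3 and 14.9 CPM in CryDKO_CT8 and 15.4, 19.9, 15.1 and 27.7 CPM in CryDKO_CT16, with all groups overlapping.

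In gap filling only Lig1, the ligase of replicating cells, passed at CT8. It stood at 1.73, 2.63, 2.35 and 2.78 CPM in WT_CT8 and at 5.32, 4.99, 2.82 and 3.57 CPM in CryDKO_CT8, and rose by 0.82 ± 0.25 (adjusted p = 0.016, edgeR). The lowest knockout-labelled library, at 2.82, was barely above the highest WT library, at 2.78. The summed level of 14 proliferation genes was 32.3 to 39.4 CPM in WT_CT8 and 31.7 to 66.1 CPM in CryDKO_CT8, so the sums overlapped. Of the 12 tested, 11 had a log2 change above 0, with a median of 0.52 against -0.02 over all genes, and 2 were called higher and 1 lower (18.7% and 20.3% of all genes). The part of proliferation in the Lig1 result was not tested. Lig3 and Xrcc1, the ligase complex used in non-dividing cells, and Pcna, Pold1 and Pole did not pass. Of 22 other genes of the pathway tested, 5 rose and 2, Gtf2h2 and Polk, fell at CT8 with TMM (18.7% and 20.3% of all genes). With library size alone 1 was higher and 6 lower (6.63% and 35.4% of all genes). The median log2 change was 0.04 with TMM and -0.29 with library size alone. Among the rises with TMM were those of Pold4, an accessory subunit of DNA polymerase delta (log2 change 1.00 ± 0.26, adjusted p = 0.00517, edgeR), Pold2, another accessory subunit (0.44), Rfc1, the large subunit of the clamp loader (0.39), and Pole3, a small subunit of polymerase epsilon (0.36). Polk, a translesion polymerase also used in gap filling, differed by -0.63 (adjusted p = 0.037, edgeR).

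How libraries are scaled decided the balance of rises and falls. With library size alone the median over all genes shifted to -0.36 for genotype at CT8, -0.16 for genotype at CT16, -0.29 for dosing time in WT and 0.20 for the interaction, against -0.02, -0.01, -0.04 and 0.01 with TMM. Under that scaling 1 member was higher and 10 lower at CT8 (6.63% and 35.4% of all genes), in place of 10 and 4. The calls of Uvssa (-1.68), Rpa3 (-1.67), Ddb2 (-1.48), Ercc6 (-1.07) and Ddb1 (0.55) passed under both scalings. The other 9 rises kept their sign, at log2 changes of 0.01 to 0.50, and none passed. Besides Cdk7, Ccnh and Gtf2h5, the members called lower with library size alone and not with TMM were Cetn2 (-0.59), Ercc4 (-0.60) and Ercc5 (-0.72). At CT8, all rises other than that of Ddb1 therefore passed with TMM and not with library size alone. Every change, that of Ddb1 included, is relative, either to the median gene as TMM sets it or to total reads. At CT16 the rise of Ercc3 passed with library size alone (0.53, adjusted p = 0.00718, edgeR), those of Ercc2 and Ddb1 did not, the falls of Uvssa and Gtf2h1 did, and Pcna was also called lower (-0.51, adjusted p = 0.0126, edgeR).

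**Figure D3:**
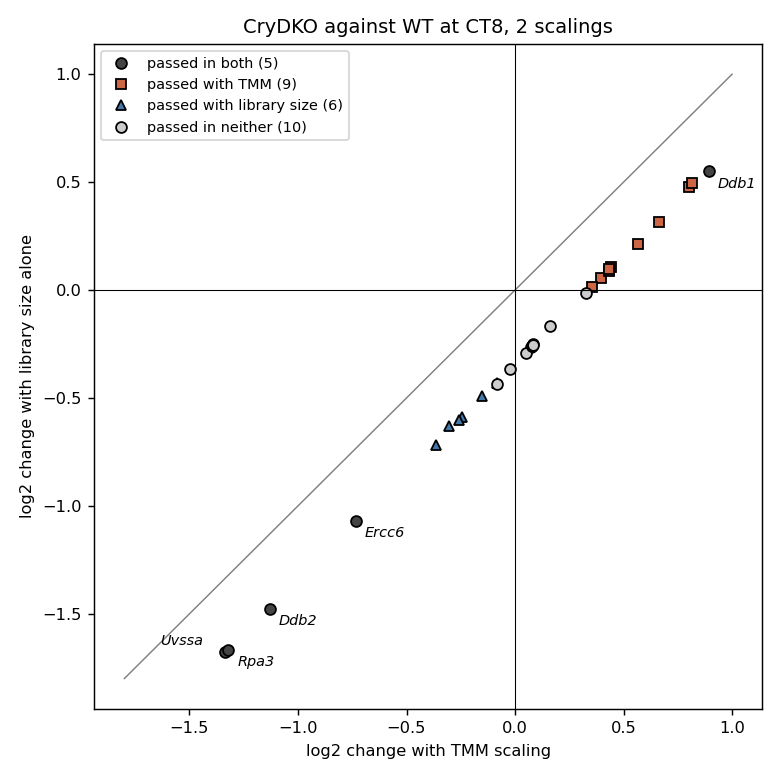
Log2 change between CryDKO and WT at CT8 of the 30 members with TMM scaling (x axis) and with library size alone (y axis), 1 point per gene, with the line of equal values. Every point lies below the line, and the 5 genes that passed under both scalings are named.

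At CT16, CryDKO against WT gave 3 members higher (Ercc3, Ercc2 and Ddb1) and 2 lower (Uvssa and Gtf2h1), against 9.0% of all genes higher and 9.15% lower, again near the background. The median log2 change was 0.04 over members and -0.01 over all genes, and in the same 5 members the groups did not overlap (19.8% of all genes). Ercc2, which encodes the XPD helicase that scans for the lesion, stood at 8.66, 8.17, 7.72 and 9.03 CPM in WT_CT16 and at 13.3, 10.3, 12.9 and 10.7 CPM in CryDKO_CT16, and rose by 0.49 ± 0.16 on the log2 scale (adjusted p = 0.0337, edgeR). Gtf2h1, the TFIIH subunit that contacts XPC and UVSSA, stood at 35.3, 36.6, 33.2 and 26.9 CPM and at 26.3, 23.8, 22.8 and 24.2 CPM, and fell by 0.44 ± 0.13 (adjusted p = 0.0275, edgeR). Ddb1 stood at 225, 175, 176 and 123.5 CPM and at 226, 245, 238 and 256 CPM, where the highest WT library nearly reached the lowest knockout-labelled one, and rose by 0.47 ± 0.16 (adjusted p = 0.0463, edgeR). The Ddb1 call was lost in 15 of 16 fits that left out 1 library. The Ercc2 call was lost without WT_CT16 library 6 or 7 or CryDKO_CT16 library 11 or 13, and the Gtf2h1 call without WT_CT16 library 5, 6 or 7 or CryDKO_CT16 library 12, 13 or 14. Exons of Ercc2 overlap Klc3 over 16.4% and the antisense gene Gm26852 over 18.1% of their bases. Without library 8, Ddb1 did not pass (0.32, adjusted p = 0.145, edgeR), Pcna fell by 0.46 (adjusted p = 0.0314) and Pold1, the catalytic subunit of polymerase delta, rose by 0.66 (adjusted p = 0.0407), against 5.98% of all genes higher and 6.89% lower. Of 22 other pathway genes tested, 1 was higher and 1 lower. The lower gene was Cul4b, a cullin of the DDB1 ligase (-0.42, adjusted p = 0.0345, edgeR), whose groups overlapped and whose call was lost in 5 of 16 fits that left out 1 library.

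Within WT, Ddb1 and Rpa1 rose and Ddb2 fell at CT16 against CT8. The comparison shares its WT_CT8 libraries with that of the genotypes at CT8, where the log2 changes of these genes were 0.89, 0.36 and -1.13. Ddb1 had a mean of 114 ± 15.1 CPM (SD, n = 4) at CT8, against 175 ± 41.3 at CT16, and rose by 0.62 ± 0.16 on the log2 scale (adjusted p = 0.0455, edgeR), and library 8, at 123.5 CPM, lay inside the CT8 range. Rpa1 stood at 31.8, 24.2, 29.7 and 20.9 CPM at CT16, where again library 8 fell inside the CT8 range, and rose by 0.49 ± 0.13 (adjusted p = 0.0483, edgeR). Ddb2 stood at 1.53, 2.91, 2.68 and 4.46 CPM at CT16, all below the CT8 libraries, and fell by 1.08 ± 0.27 (adjusted p = 0.0441, edgeR). That was 2 higher and 1 lower of 30, against 1.24% and 1.3% of all genes, and the median log2 change was 0.08 over members and -0.04 over all genes. Groups did not overlap in 3 members, Ddb2, Rpa3 and Ercc5, all lower at CT16, against 12.6% of all genes. The calls of Ddb2, Ddb1 and Rpa1 were lost in 9, 11 and 12 of 16 fits that left out 1 library, among them each fit without WT_CT8 library 1, 2, 3 or 4 or WT_CT16 library 5, 6 or 7, with adjusted p up to 0.155, 0.164 and 0.164. With library size alone the Ddb2 fall passed (-1.28, adjusted p = 0.0458, edgeR) and neither rise did (Ddb1 0.34, adjusted p = 0.123; Rpa1 0.23, adjusted p = 0.224). None of the other pathway genes tested, 22 in number, passed.

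Library 8 lay inside the WT_CT8 range for 18 of 30 members, against 11, 8 and 9 for libraries 5, 6 and 7. Without it 9 members passed, 6 higher and 3 lower at CT16, against 12.9% of all genes higher and 11.5% lower. The higher members were Ddb1 (0.79), Rpa1 (0.63), Xpc (0.59), Rad23b (0.54), Pcna (0.47) and Gtf2h1 (0.38), which makes 3 of 5 global genome sensors. The lower members were Ddb2 (-1.32), Uvssa (-0.73) and Ercc6 (-0.65), which adds 2 of 3 transcription-coupled sensors. Library 8 is labelled CT16 like the others, and leaving it out was done for every library in turn.

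**Figure D4:**
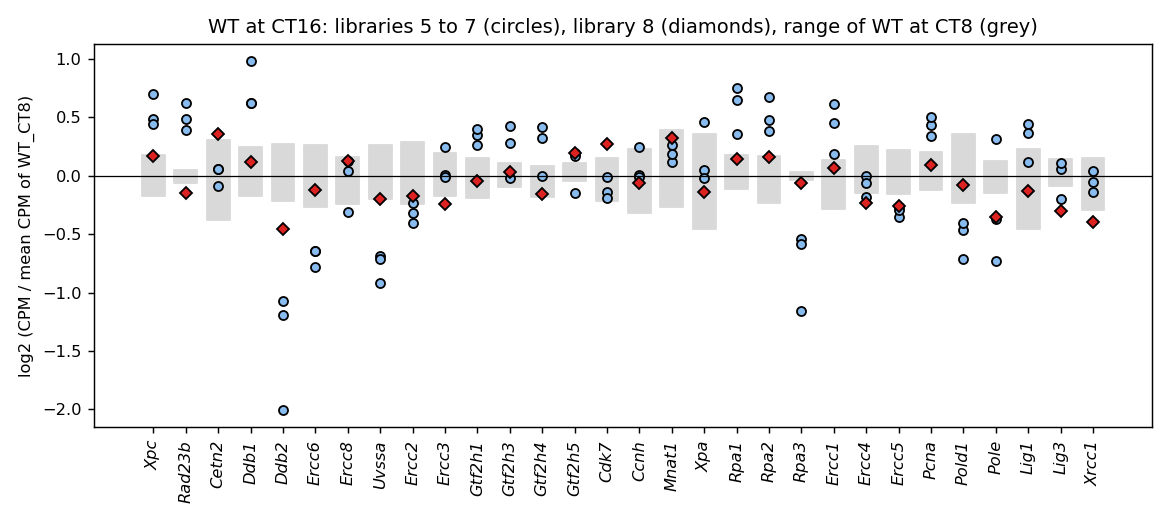
Level of each member in the WT_CT16 libraries as log2 of its CPM over the mean of WT_CT8 (y axis), by gene (x axis), with the range of WT_CT8 in grey. For Uvssa, Ercc6, Ddb1, Rad23b and Ddb2 library 8 (red diamonds) lies between 0 and the other 3 libraries or near 0, or on the other side of 0 for Rad23b.

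In libraries labelled CryDKO, 0 of 30 members passed between dosing times, as did 0.0% of all genes. After adjustment DESeq2 called 0 members and 13 genes, and limma voom 0 members and 0 genes. At an unadjusted p under 0.05 there were 1 member and 938 genes by edgeR's quasi-likelihood test, 1 and 1198 by DESeq2, and 1 and 932 by limma voom. The lowest p values belonged to Pole (-0.69 ± 0.30, adjusted p = 0.751), Gtf2h1 (-0.27, adjusted p = 0.783) and Rpa3 (0.39, adjusted p = 0.819). Pole stood at 1.70, 2.34, 1.72 and 2.48 CPM at CT8 and at 1.76, 1.28, 1.26 and 0.820 CPM at CT16, with overlap. Uvssa stood at 12.3 ± 2.70 and 11.9 ± 2.79 CPM and Ddb2 at 2.80 ± 0.802 and 3.02 ± 0.478 CPM at the 2 times.

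Whether the dosing time acted differently in the 2 genotypes is asked by the interaction, and no member passed it. By edgeR 0 of 30 members and 0.0414% of all genes passed. At an unadjusted p under 0.05 by edgeR there were 8 of 30 members and 1927 of 14484 genes. After adjustment DESeq2 called 0 members and 137 genes, and limma voom 0 members and 1 gene. The lowest p values belonged to Rpa1 (-0.57 ± 0.19, adjusted p = 0.239), Ddb2 (1.18 ± 0.39, adjusted p = 0.239) and Gtf2h1 (-0.52 ± 0.19, adjusted p = 0.278). So the changes seen by time in WT and not in CryDKO were not shown to differ between the genotypes with all libraries in the fit. Without library 8, Rpa1 (-0.71, adjusted p = 0.0299) and Ddb2 (1.43, adjusted p = 0.0381) passed, against 1.87% of all genes higher and 1.99% lower.

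Ratios of reads between genes within a library do not depend on the scaling of libraries. Uvssa and Ercc3 are not subunits of the same complex, and were a pair that differed by genotype in opposite directions. The 8 ratios were chosen after values had been seen and compared in 4 contrasts, 32 exact two-sided permutation tests. With 4 against 4 libraries the smallest p possible is 0.0286, and its adjusted value here was 0.114, so none passed. That smallest p was reached at CT8 between genotypes, and also between times in WT, by the ratios of Ddb2 to Ddb1, Rpa3 to Rpa1 and Ercc1 to Ercc4, and by genotype at both times by the ratio of Uvssa to Ercc3. Ercc1 per Ercc4 read ran from 0.189 to 0.282 in WT_CT8, 0.285 to 0.369 in WT_CT16, 0.337 to 0.608 in CryDKO_CT8 and 0.286 to 0.634 in CryDKO_CT16.

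The targets of p53, the damage-responsive transcription factor, gave 5 higher and 1 lower of 15 by genotype at CT8 and 5 higher and 0 lower at CT16, with a median log2 change of 0.31 and 0.56. Across all genes 18.7% were called higher and 20.3% lower at CT8, and 9.0% and 9.15% at CT16. Without library 8 the list gave 2 higher and 0 lower at CT16, with a median of 0.43, against 5.98% and 6.89% of all genes. With library size alone the list gave 2 higher and 3 lower at CT8 (median -0.06) and 2 higher and 0 lower at CT16 (median 0.44).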

How the data were processed

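Liver poly(A) RNA was sequenced in 16 libraries, 4 per group. Per the submitters' processing notes, FastQC, Trimmomatic 0.35, STAR 2.5.3, HTSeq 1.99.2 and DESeq2 were used with GRCm39 (mm39); annotation and strand setting: not given in the sources used here. One deposited table has raw counts per symbol. The other deposited table is a normalized signal, by its values the counts divided by 1 factor per library, for 19592 genes, used only as an alternative; in it, the library numbers of 4 CryDKO_CT8 columns are exchanged within the group.

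Counts were fitted in R 4.3.3 with edgeR 4.0.16 (filterByExpr, TMM, robust quasi-likelihood, 1 coefficient per group, all 16 libraries), with two-sided p adjusted by Benjamini-Hochberg over 14484 genes called under 0.05. The SE of a log2 change is approximate. Replicates differed beyond counting error (chi-square per degree of freedom 21.7 to 136), so no library was counted as a copy. Exon lengths and overlaps came from GENCODE for GRCm38, matched by symbol. The fit was tested on simulated data. Alternatives were DESeq2 1.42.0, limma 3.58.1 (voom, and trend on the normalized values plus 1), other scalings and filters, and each library left out. All members are accounted for: those past the threshold are given with their values, the rest by counts and ranges. Some listed genes are not reported here. Members, lists and rules were chosen with earlier results of these data known.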

Additional observations from a re-analysis of the deposited data

Results flagged for a closer look

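Each of the 120 sets of 4 values (30 genes in 4 groups) was checked for a library far from the others by Dixon's test, which flags about 1 in 20 sets by chance, and 7 were flagged. Uvssa stood at 16.3 CPM in CryDKO_CT8 library 16 against 10.6 to 11.3 in the other 3, still below every WT library. Ercc1 stood at 6.06 CPM in CryDKO_CT16 library 12 against 3.38 to 3.76. Ercc4 stood at 11.8 CPM in CryDKO_CT16 library 14 against 9.36 to 9.70, and Ercc8 at 2.41 in CryDKO_CT16 library 11 against 3.31 to 3.43. Xrcc1 stood at 7.50 CPM in CryDKO_CT8 library 9 against 13.1 to 13.8. Gtf2h5 was far from the rest in WT_CT8 library 3 (29.6 against 26.6 to 27.0 CPM) and in WT_CT16 library 5 (24.8 against 30.8 to 31.5 CPM).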

How the results depend on the processing

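None of the 37 log2 changes of named genes changed sign under the alternatives run. These were the changes past the threshold or, where no member passed, those with the 3 lowest p, a choice that favours stable signs. Among all 30 members, 18 were above 0 by genotype at CT8 with TMM and 10 with library size alone. Between times in WT the numbers were 18 and 7. With library size alone the median over the members turned from 0.08 to -0.26 by genotype at CT8, from 0.04 to -0.12 by genotype at CT16 and from 0.08 to -0.17 between times in WT, along with the median over all genes. By genotype at CT8 the count of members past the threshold, 14, ranged from 11 to 15 under other tests, scalings, filters and sample choices, and from 10 to 15 when 1 library was left out. By genotype at CT16 it was 5, and 3 without a low count filter and 3 with only the groups of the comparison, and it ranged from 2 to 6 when 1 library was left out. Between times in WT it was 3, and 5 with DESeq2, 5 with limma voom, 1 with library size alone and 0 with limma on the deposited normalized values, and it ranged from 0 to 9 when 1 library was left out. Over all genes that comparison called 367 of 14484 in the main fit, 1517 of 25231 with DESeq2, 955 of 14484 with limma voom and 372 of 14484 with library size alone. The interaction ranged from 0 to 2 and the times in CryDKO from 0 to 0. For 37 results of named genes, of which 31 were called, 775 repeats stayed on the same side of the threshold, 144 lost a call and 2 gained one. No paired analysis was possible because the columns carry a running library number over the series and no replicate number shared between groups. Genes of low count, such as Pole with 16 to 74 reads and Ddb2 with 37 to 239 reads per library, limit what can be detected. The cause of the changed counts was not tested.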
